A study of Homo sapiens with 5 samples.

Results

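The 57 genes described here act in G2 phase and mitosis, the part of the cell cycle in which the duplicated chromosomes are condensed, attached to the spindle and separated. They were taken by symbol from a fixed list, chosen with earlier results of these data known. No measured value was in the rule, and each gene is read by its brightest probe among those detected on at least 1 array. All 57 had such a probe, out of 11808 genes with a detected probe and 20044 genes named on the array. The list has 89 named probes in all, of which 85 were detected, and 55 of the genes were detected on every array. NCAPH was detected only on the LNRII control array, and MKI67 on every array but that of LNRII with TGFB3.

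The study ran mRNA from 5 cultures of human prostate cancer cells on Illumina bead arrays, 1 array a culture. LNCaP is a line from a metastasis that responds to androgen, and LNRII is a stable line made from it with a lentivirus that carries the TGF-beta type II receptor TGFBR2 behind a CMV promoter and a puromycin resistance gene. LNRII cultures received the ligand TGFB3 at 5 ng/ml or vehicle for 3 days. LNCaP cultures were infected with a lentivirus carrying shCtr, the control hairpin, or shFOXA1, which targets the transcription factor FOXA1, selected with puromycin from 48 h after infection and labelled day 10. A second shFOXA1 culture received 10 µM LY2157299 for 3 days, a compound also called galunisertib that blocks the kinase of the TGF-beta type I receptor, and whether the other LNCaP cultures had vehicle is not given array by array. The genotype label of all 5 is WT.

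Genes of this group are switched on together late in the cell cycle. In cells that are resting or arrested, the repressor complex DREAM holds them off at a promoter element called the CHR. In cycling cells the MuvB core of that complex joins the activators B-MYB and FOXM1 at the same genes, so their mRNA is widely used as a measure of proliferation, in prostate tumours as elsewhere. TGF-beta is known to stop the growth of many epithelial cells in G1, in part by raising the CDK inhibitor encoded by CDKN2B.

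With 1 array per condition, no test or p-value can be given, and no difference has a check in a second culture. The number of arrays limits the precision. The only error at hand is the disagreement of different probes for the same gene, measured over all genes with a pair of probes detected on both arrays. The SD of a single log2 difference was 0.22 for TGFB3 against control (2217 genes), 0.17 for shFOXA1 against shCtr (2601 genes) and 0.15 for LY2157299 against shFOXA1 (2593 genes). It does not include the spread between cultures. Between 32.3% and 38.1% of the 47306 probes were detected per array, lowest on the LNRII control array, whose detection floor was also the highest (log2 5.03, against 4.67 to 4.72 on the other arrays). FOXA1 read 11.81, 11.92, 11.82, 11.26 and 11.30, on the log2 scale and in the order LNRII control, LNRII TGFB3, shCtr, shFOXA1, shFOXA1 with LY2157299, so the hairpin array differed from its control by -0.56. All 9 measured genes of a LNCaP identity list were detected on all arrays. Of 12 markers of basal, neuroendocrine, immune, endothelial and stromal cells, KRT14 was detected on the 3 LNCaP arrays and COL1A1 on 2 arrays, TP63 had no named probe, and no other was detected on any. KRT14 read 4.26, 4.18, 4.74, 5.35 and 5.11, and its part in the results was not tested. Levels below are log2 intensities in that same order of arrays, and differences are log2 differences with their direction named. Levels of different genes come from different probes and are not set against each other.

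The mitotic genes stood at their highest level in LNRII cells without TGFB3, at a lower level with TGFB3, and within LNCaP at their lowest level with the FOXA1 hairpin. The LNRII control array was the highest of the 5 for 54 of 57 genes. The lowest array was shFOXA1 for 38 genes and LNRII with TGFB3 for the other 19. The order of the arrays was not counted over all genes. Set against shCtr, and with no detection floor applied, the median of the 57 levels was 0.58 higher in the LNRII control, -0.27 with TGFB3, -0.41 with shFOXA1 and 0.01 with shFOXA1 and LY2157299. In mRNA from a whole culture, fewer cells in G2 and mitosis and less of these mRNAs per cell cannot be told apart.

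**Figure D1:**
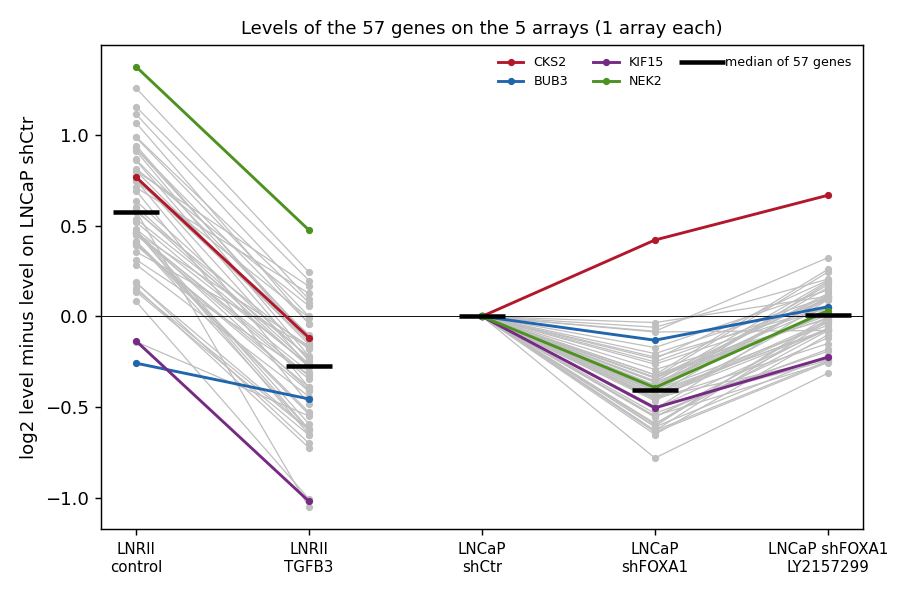
Log2 level of each of the 57 genes minus its level on the LNCaP shCtr array, on each of the 5 arrays (1 array per condition); black bars are medians and lines are single genes, of which CKS2, BUB3, NEK2 and KIF15 are coloured. The median is 0.58 in the LNRII control, -0.27 with TGFB3, -0.41 with shFOXA1 and 0.01 with LY2157299 added, and CKS2 is the only line above 0 with shFOXA1.

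With TGFB3 all 57 genes were lower than in the LNRII control (46% of all 10711 genes measured were below 0, and 665 genes stood at exactly 0 for want of detection on 1 of the arrays). Of the 57, 16 were at least 2-fold lower, against 1.16% of all genes, and 52 were at least 1.5-fold lower, against 6.64%. The median difference was -0.88, which is 54.2% of the control signal, where the median of all genes was 0.00. The difference was larger than 2 probe SDs for 54 of the 57, a count not made over all genes. Of all genes ordered by this difference, 49 of the 57 lay in the lowest 5%. With the FOXA1 hairpin 55 of 56 measured genes were lower than with the control hairpin (52.3% of all 11132 genes), with a median of -0.41 or 75.3% of the control signal. None was 2-fold lower (0.377% of all genes), 9 were 1.5-fold lower (1.84%), and 24 of the 56 lay in the lowest 5% of all genes.

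LY2157299 on top of the hairpin went with a higher reading of all 56 measured genes than the hairpin alone (50.7% of all 11002 genes were above 0). The median was 0.40, no gene was 2-fold higher (0.0545% of all genes) and 4 were 1.5-fold higher (0.636%): BUB1, DLGAP5, CDK1 and KIF23. In the highest 5% of all genes lay 40 of the 56. This comparison shares the shFOXA1 array with the one before it. A low reading of that array and effects of the hairpin and of LY2157299 cannot be told apart. Against shCtr, the culture with hairpin and LY2157299 had 26 of 56 genes lower (50.7% of all 11019 genes) and 30 higher (48.3%), between 80.5% and 159% of the control signal, with a median of 101%. CKS2 was the 1 gene that stood 1.5-fold higher there (3.04% of all genes), and none was 1.5-fold lower (2.34%).

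**Figure D2:**
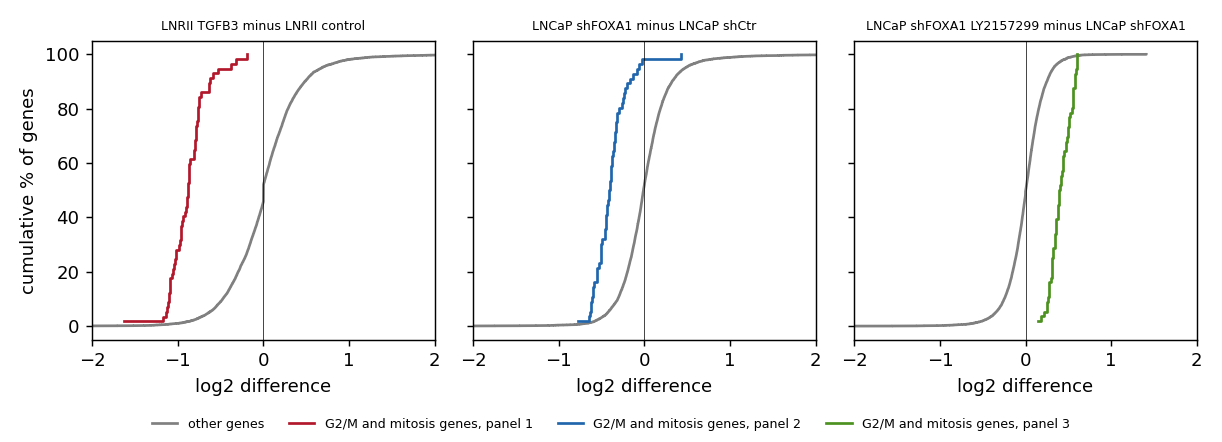
Cumulative share of genes (%) against the log2 difference in 3 comparisons named above the panels, for the G2/M and mitosis genes (coloured) and all other genes measured (grey). The coloured curves lie to the left of the grey one in the first panels, with medians of -0.88 and -0.41, and to the right of it in the last, with a median of 0.40.

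Cyclins, CDK1 and their regulators start mitosis. All 9 were lower with TGFB3 (median -0.94), and 3 of them by 2-fold or more. CDK1, the kinase that drives entry into mitosis, read 11.62, 10.52, 10.76, 10.25 and 10.85. The cyclin that binds it in late S phase and G2, CCNA2, read 9.23, 8.14, 9.14, 8.72 and 9.08. In both, the LNRII control was the highest array and the TGFB3 array was lower to nearly the same extent (-1.11 and -1.09). The differences with the FOXA1 hairpin were smaller, -0.51 and -0.43, and with LY2157299 both stood within 0.1 of shCtr.

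The B-type cyclins are the main partners of CDK1 in mitosis. CCNB1 read 8.74, 7.99, 8.17, 8.00 and 8.31, and CCNB2 read 10.01, 9.28, 9.72, 9.16 and 9.66. With TGFB3 they were lower by nearly the same amount (-0.76 and -0.73). With shFOXA1 they differed from shCtr by -0.17 for CCNB1 and -0.56 for CCNB2, so that only CCNB2 was lower by more than 2 probe SDs. PLK1, the polo-like kinase that acts on centrosomes, kinetochores and the cleavage furrow, read 6.81, 5.94, 6.22, 6.02 and 6.33 and differed by -0.87 with TGFB3 and -0.21 with the hairpin. The remaining members, the CDK1-activating phosphatases CDC25B and CDC25C, stood at -0.94 and -0.97 with TGFB3 and at -0.50 and -0.34 with the hairpin.

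CKS1B and CKS2 encode closely related small proteins that bind cyclin-dependent kinases. Both were lower with TGFB3, and they parted with FOXA1 knockdown. CKS1B read 11.47, 10.38, 10.52, 10.16 and 10.54, and its second probe 10.29, 9.25, 9.50, 9.07 and 9.52. CKS2 read 12.02, 11.14, 11.26, 11.68 and 11.92, and its second probe 11.43, 10.63, 10.62, 11.13 and 11.15. On both CKS2 probes the shFOXA1 array lay above shCtr, by 0.42 and 0.51, while both CKS1B probes lay below it, at -0.36 and -0.43. CKS2 was the only one of the 56 genes above 0 in that comparison. With LY2157299 its used probe was higher again, at 0.67 above shCtr, though the step from shFOXA1 was 0.25 on the used probe and 0.02 on the other.

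Promoter windows of 4 genes of this role group are printed here because CCNB2 and PLK1 are textbook CHR genes and because the CKS pair parted with FOXA1 knockdown. Each runs from 250 bases before to 50 bases after the start site, on the plus strand, from RefSeq on GRCh38.p14. The windows are chr15:59104896-59105195 for CCNB2, chr16:23678639-23678938 for PLK1, chr1:154974431-154974730 for CKS1B and chr9:89310945-89311244 for CKS2. Capitals mark the CHR letters (TTTGAA, read as TTCAAA on the other strand, or TTCGAA, which reads the same on both) and the CCAAT letters (ATTGG on the other strand), which bind the factor NF-Y.
CCNB2: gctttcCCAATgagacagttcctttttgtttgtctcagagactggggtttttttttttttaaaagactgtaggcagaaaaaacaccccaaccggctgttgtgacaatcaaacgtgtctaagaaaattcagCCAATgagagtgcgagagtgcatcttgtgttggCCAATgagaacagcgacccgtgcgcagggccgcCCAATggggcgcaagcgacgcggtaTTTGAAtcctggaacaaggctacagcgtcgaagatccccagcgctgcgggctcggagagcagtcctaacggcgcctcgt
PLK1: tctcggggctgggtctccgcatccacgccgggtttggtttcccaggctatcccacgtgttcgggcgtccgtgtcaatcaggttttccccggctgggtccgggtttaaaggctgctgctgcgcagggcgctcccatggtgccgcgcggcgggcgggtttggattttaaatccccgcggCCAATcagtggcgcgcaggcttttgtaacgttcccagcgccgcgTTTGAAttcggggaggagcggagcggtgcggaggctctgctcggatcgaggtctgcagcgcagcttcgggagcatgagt
CKS1B: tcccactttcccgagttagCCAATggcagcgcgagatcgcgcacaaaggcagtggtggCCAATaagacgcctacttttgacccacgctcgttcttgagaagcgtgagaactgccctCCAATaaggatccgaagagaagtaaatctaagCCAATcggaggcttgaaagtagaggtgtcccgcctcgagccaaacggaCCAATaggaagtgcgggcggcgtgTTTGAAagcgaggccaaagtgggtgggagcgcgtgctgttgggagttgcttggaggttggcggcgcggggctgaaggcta
CKS2: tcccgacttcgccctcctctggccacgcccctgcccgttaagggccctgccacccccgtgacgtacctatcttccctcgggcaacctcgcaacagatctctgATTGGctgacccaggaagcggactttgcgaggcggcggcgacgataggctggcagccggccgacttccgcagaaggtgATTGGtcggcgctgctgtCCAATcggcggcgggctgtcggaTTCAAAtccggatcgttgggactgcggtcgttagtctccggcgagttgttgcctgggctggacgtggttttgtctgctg
In each of the 4, CHR letters begin 29 or 30 bases before the start site (-29 in CCNB2, PLK1 and CKS2, -30 in CKS1B). CCAAT letters stand upstream of them in all 4, at -54, -87, -120 and -244 in CCNB2 and at -73 in PLK1. In CKS1B they are found 5 times and in CKS2 3 times. Not every gene of the group holds CHR letters as spelled here. The windows of CCNB1 and CCNA2 hold CCAAT letters (at -87 and -55 in CCNB1 and at -56 in CCNA2) but neither TTTGAA nor TTCGAA. Other forms of the CHR were not searched, so a CHR in these windows is not excluded. The windows of CKS1B and CKS2 hold CHR letters at nearly the same place, on opposite strands.

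Windows were found for 47 of the 57 genes. Of these 47, 36 (76.6%) hold CHR letters in at least 1 window, against 19.5% of the 27305 genes with a window and 16.4% of all 35116 windows. Within 50 bases of the start site it was 31 of 47 (66.0%), against 6.24% of genes and 5.01% of windows. CCAAT letters were found in 35 of 47 (74.5%), against 39.7% of genes and 34.6% of windows, and both kinds in 28 (59.6%), against 7.85% of genes and 6.38% of windows. The forkhead core TAAACA, searched on both strands, was found in 4 of 47 (8.51%), against 14.7% of genes and 12.3% of windows. These are matches of letters in 300 bases and not sites. The 36 genes with CHR letters had a median of -0.89 with TGFB3 and the 11 without -0.79. With the hairpin it was -0.41 for 36 genes and -0.43 for 10.

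FOXM1, the forkhead factor that activates late cell cycle genes, and the kinases MELK and PBK formed a further group. FOXM1 read 7.53, 6.50, 7.12, 6.49 and 6.87. PBK, a mitotic kinase, read 8.76, 7.13, 8.18, 7.72 and 8.23, the widest gap with TGFB3 of all 57 genes, at -1.63. MELK, a kinase that peaks in mitosis, read 10.37, 9.59, 9.98, 9.53 and 9.95. With TGFB3 FOXM1 stood at -1.04 and MELK at -0.78. With the hairpin against FOXA1, FOXM1 itself stood at -0.63, the fifth lowest of the 56, and on its second probe at -0.38. Its step with LY2157299 was 0.38 on the used probe and 0.00 on the second, which read 5.84 on both arrays.

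The genes that end mitosis by protein destruction are CDC20, which activates the ubiquitin ligase APC/C, UBE2C, which supplies it with ubiquitin, PTTG1, the securin that it destroys, and CDCA3, which acts in a further ubiquitin ligase at mitotic entry. CDC20 read 11.61, 10.85, 10.80, 10.56 and 11.00. UBE2C read 10.14, 9.37, 9.99, 9.66 and 10.05. With TGFB3 both were lower by nearly the same amount (-0.76 and -0.77), and CDC20 stood at -0.23 with the hairpin. PTTG1 read 11.64, 10.51, 10.73, 10.22 and 10.65, and CDCA3 read 8.47, 7.38, 8.00, 7.68 and 8.26. These were 2-fold lower with TGFB3 (-1.13 and -1.09). CDCA3 was 0.58 higher with LY2157299 than without it and 0.26 above shCtr, while PTTG1 against shCtr stood at -0.07.

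Kinetochore and spindle checkpoint genes hold the chromosomes to the spindle and delay anaphase until all are attached. All 11 were lower with TGFB3 (median -0.81, 4 of them 2-fold) and with the hairpin (median -0.45). The NDC80 complex is the main microtubule coupler of the kinetochore. Its subunit NDC80 read 8.74, 7.94, 8.35, 7.93 and 8.28, NUF2 read 8.17, 6.99, 7.48, 6.83 and 7.38, and SPC25 read 7.20, 6.06, 6.45, 5.67 and 6.14. NUF2 and SPC25 had the lowest differences with the hairpin of the 56 genes, at -0.65 and -0.78. Their partner NDC80 stood at -0.42, near the median. A second probe of NUF2 read 6.29, 5.03, 5.57, 5.58 and 5.85 and so was lower with TGFB3 (-1.26) but not with the hairpin (0.01).

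Among the checkpoint genes, the kinase BUB1 read 8.66, 7.65, 7.41, 6.80 and 7.41, and BUB1B, which holds CDC20 in check, read 7.83, 6.79, 6.91, 6.37 and 6.73. Both were 2-fold lower with TGFB3 (-1.02 and -1.04). TTK, the kinase that starts the checkpoint, read 8.40, 7.64, 7.94, 7.56 and 8.12. With LY2157299 BUB1 was level with shCtr, at 0.00, and TTK stood at 0.17. BUB3, which carries BUB1 and BUB1B to kinetochores, stood out with the smallest difference with TGFB3 of the 57: its bright probe read 11.08, 10.89, 11.34, 11.21 and 11.40. A second BUB3 probe read 8.65, 8.27, 7.99, 7.96 and 8.21, and another 8.09, 8.22, 8.27, 8.07 and 8.22. The former differed by -0.38 with TGFB3 and the latter was not lower. Of the members not given array by array, CENPA, the histone of centromeres, stood at -0.96 with TGFB3, and CENPE, MAD2L1 and CENPF, further genes of the kinetochore and checkpoint, at -0.79, -0.79 and -0.64. CENPF was nearly level with the hairpin (-0.06).

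Spindle motors of the kinesin family slide, shorten and cross-link microtubules. All 8 lay between -0.99 and -0.63 with TGFB3, and none reached 2-fold. KIF14, which acts in cytokinesis, read 8.37, 7.39, 7.39, 6.93 and 7.24. KIF2C, which takes microtubules apart at centromeres, read 8.34, 7.38, 7.18, 6.74 and 7.16. KIF4A, a motor on chromosome arms, read 6.97, 6.02, 6.56, 5.95 and 6.34. In KIF14 and KIF2C the TGFB3 array lay near or above shCtr, in KIF4A it lay close to shFOXA1. KIF11, the motor that pushes the spindle poles apart, read 7.57, 6.71, 6.97, 6.37 and 6.96 and stood at -0.60 with the hairpin, close to KIF4A at -0.61. KIF20A and KIF23, motors of the central spindle, read 8.35, 7.71, 8.04, 7.60 and 8.14 and 7.38, 6.62, 6.84, 6.43 and 7.03. They had the smallest differences with TGFB3 in the group (-0.63 and -0.76) and, with KIF11, the largest with LY2157299 (0.54, 0.59 and 0.58). KIF15 and KIF18A stood at -0.88 and -0.91 with TGFB3.

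Spindle assembly factors organise microtubules at poles and around chromosomes. Of 8 genes, 3 were 2-fold lower with TGFB3. AURKA, the kinase of the spindle poles, read 9.31, 8.26, 8.53, 8.17 and 8.72. ASPM, which focuses the poles, read 9.63, 8.61, 8.51, 8.13 and 8.61. HMMR, a microtubule-binding protein, read 10.35, 9.24, 9.28, 9.03 and 9.37. For ASPM and HMMR the TGFB3 array was near shCtr, and for AURKA it lay below shCtr and near shFOXA1. The LNRII control stood above shCtr by 0.78, 1.11 and 1.07. NEK2, the kinase that splits the centrosomes, showed the widest gap between the lines and read 9.70, 8.80, 8.33, 7.93 and 8.36. Its LNRII control level was 1.38 above shCtr, and even with TGFB3 it stayed above every LNCaP array, as did BUB1, KIF2C, ECT2 and KIF18A. DLGAP5, which stabilises spindle fibres, read 9.42, 8.63, 8.98, 8.35 and 8.95 and was among the genes with the largest differences both with the hairpin (-0.63) and with LY2157299 against it (0.61). Its second probe read 9.63, 8.67, 8.57, 8.31 and 8.87, a smaller difference with the hairpin (-0.26) and a like one with LY2157299 (0.56). TACC3, an AURKA substrate on the spindle, read 8.17, 7.64, 7.81, 7.49 and 7.80 and had the smallest TGFB3 difference of the group, -0.52. TPX2 and NUSAP1 stood at -0.97 and -0.87 with TGFB3.

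The chromosomal passenger complex corrects faulty attachments and then guides cell division. AURKB, its kinase, read 8.21, 7.14, 7.73, 7.18 and 7.61, CDCA8, also known as borealin, read 8.33, 7.48, 7.58, 7.17 and 7.68, and BIRC5, also known as survivin, read 9.09, 8.47, 8.63, 8.55 and 8.95. AURKB was 2-fold lower with TGFB3 (-1.07) and stood at -0.55 with the hairpin, while BIRC5 stood at -0.62 and -0.08. BIRC5 with LY2157299 was 0.32 above shCtr, second only to CKS2 among the 56 genes.

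Cytokinesis genes close the cleavage furrow. RACGAP1, a GTPase regulator of the central spindle, read 8.55, 7.43, 8.08, 7.69 and 8.19 and was 2-fold lower with TGFB3 (-1.12). Its second probe lay near the detection floor at 5.84, 5.43, 5.15, 5.39 and 5.29 and showed a smaller difference, -0.40. ECT2, the factor that activates RhoA at the furrow, read 9.57, 8.98, 8.85, 8.22 and 8.60. It was the exception in that the hairpin (-0.64) went with at least as low a reading as TGFB3 did (-0.58). ANLN, the furrow scaffold anillin, read 8.46, 7.59, 7.83, 7.42 and 7.78. PRC1, which bundles central spindle microtubules, read 10.18, 9.37, 9.99, 9.64 and 10.12. Both were lower by similar amounts with TGFB3 (-0.87 and -0.81) and with the hairpin (-0.41 and -0.36).

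Condensin and chromosome structure genes had no member 2-fold lower with TGFB3 and a median of -0.79 over 7 genes. The condensin core SMC2 read 8.30, 7.41, 8.14, 7.88 and 8.19, its partner SMC4 read 9.68, 8.78, 8.92, 8.33 and 8.84, and the condensin I subunit NCAPG read 9.26, 8.37, 9.07, 8.56 and 8.88. With TGFB3 the 3 were lower by almost the same amount (-0.88, -0.90 and -0.89), while with the hairpin SMC2 stood at -0.26 and SMC4 at -0.59. Their dimmer second probes gave the reverse order with the hairpin, -0.36 for SMC2 and -0.19 for SMC4. TOP2A, the topoisomerase that untangles chromosomes, read 9.43, 8.68, 8.95, 8.61 and 9.19 and was 0.58 higher with LY2157299 than without it. HMGB2, a DNA-bending chromatin protein, stood at -0.79 with TGFB3. MKI67, which encodes the proliferation marker Ki-67, was dim on this array. It read 5.05, 4.63, 5.18, 5.15 and 5.30, near the detection floor on every array, and its differences were -0.32 or lower with TGFB3 and -0.03 with the hairpin. NCAPH, above background only in the LNRII control at 5.11, was lower by at least 0.38 with TGFB3 and could not be compared within LNCaP.

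**Figure D3:**
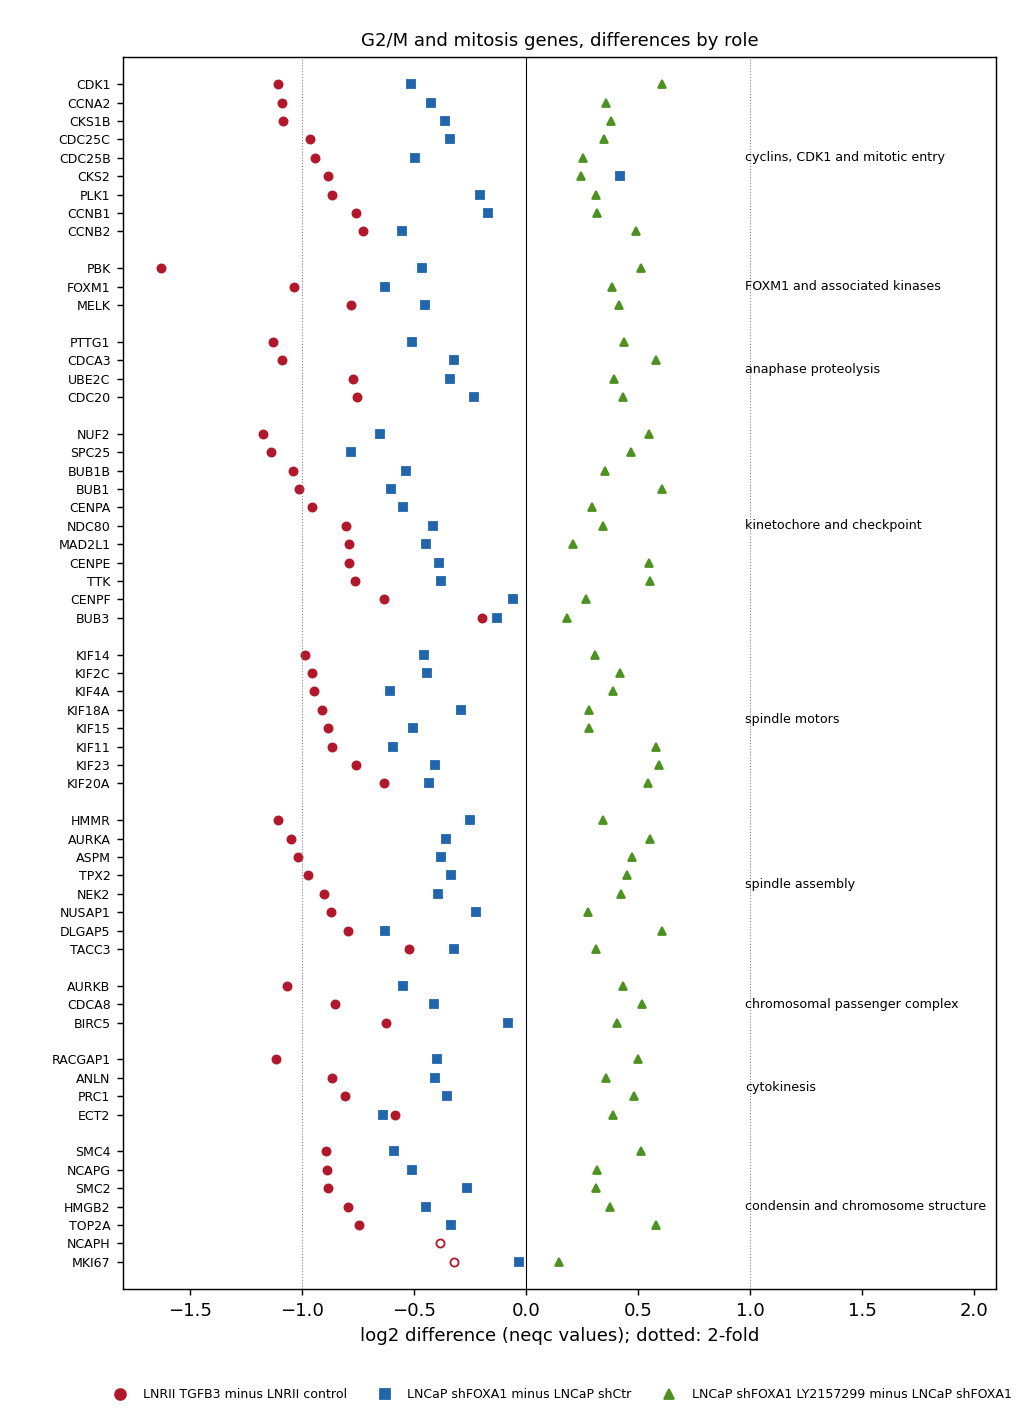
Log2 differences of each gene, grouped by role, for TGFB3 against control in LNRII (circles), shFOXA1 against shCtr in LNCaP (squares) and LY2157299 against shFOXA1 (triangles); open circles are bounds, where the TGFB3 array was below detection, and dotted lines mark 2-fold. All circles lie below 0, all squares but that of CKS2 lie below 0, and all triangles lie above 0.

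With TGFB3 the medians of the role groups ran from -1.04 (FOXM1 and the kinases, 3 genes) to -0.79 (condensin and chromosome structure, 7 genes), with the hairpin from -0.47 to -0.33 and with LY2157299 from 0.35 to 0.44. The last group counts MKI67 and NCAPH at their bounds with TGFB3, while its SMC2, SMC4 and NCAPG stood at -0.88, -0.90 and -0.89. Whether the role groups differ from each other was not tested. By mean level, the dimmest, middle and brightest 19 genes had medians of -0.96, -0.87 and -0.80 with TGFB3. Of them, 6, 5 and 5 were 2-fold lower. Across all 57 genes, mean level and the TGFB3 difference were hardly related, at -0.02 by Pearson and 0.11 by Spearman. With the hairpin the same medians were -0.50 (18 genes), -0.39 and -0.43, which did not follow the order of brightness. The correlation with mean level there was 0.27 by Pearson and 0.21 by Spearman over 56 genes.

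Second probes gave a partly independent reading of the same RNA. For 23 genes a second probe was detected on both LNRII arrays, and all 23 were lower with TGFB3 on both probes, with medians of -0.90 on the first and -0.92 on the second. With the hairpin 20 of 23 had the same sign on both, the exceptions being NUF2, UBE2C and RACGAP1. The second probes of UBE2C and RACGAP1 read between 4.79 and 5.84 over the 5 arrays, near the floor. With LY2157299 it was again 20 of 23, with FOXM1, MAD2L1 and RACGAP1 as exceptions. Against shCtr, where most differences are small, 15 of 25 had the same sign.

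**Figure D4:**
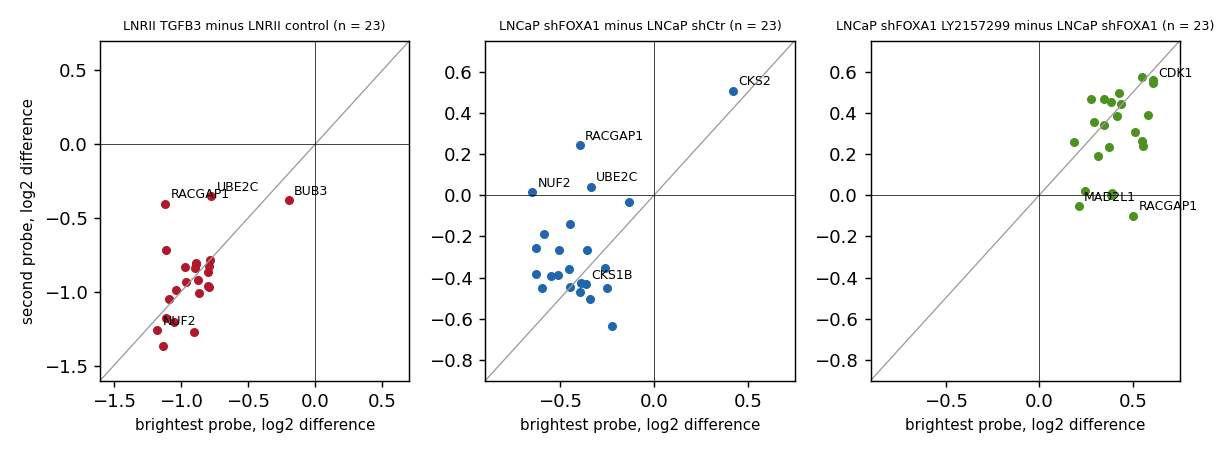
Log2 difference read by the second probe (vertical) against that of the brightest probe (horizontal) for genes with 2 probes detected on both arrays, 23 genes in each comparison; the grey line marks equality. All points of the TGFB3 comparison lie below 0 on both axes, and CKS2 lies above 0 on both with the hairpin.

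The comparisons of TGFB3 with control and of shFOXA1 with shCtr share no array. Across 56 of the genes the correlation of their differences was 0.38 by Pearson and 0.36 by Spearman. Across 10124 other genes the values were 0.40 and 0.37, close to those of the mitotic genes. Genes are not independent replicates, all of them share the same 4 arrays, and no p is given. PBK, with the largest difference with TGFB3, was near the median with the hairpin (-0.47), and ECT2, the third lowest with the hairpin, was the fifth from the least with TGFB3.

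**Figure D5:**
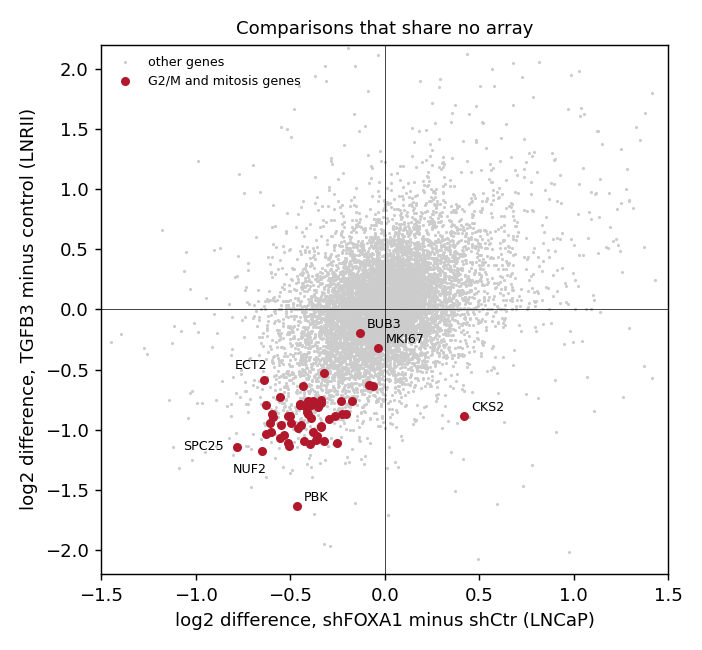
Log2 difference with TGFB3 in LNRII (vertical) against the log2 difference with the FOXA1 hairpin in LNCaP (horizontal), for the mitotic genes (red) and all other genes measured on both (grey). All red points lie below 0 on both axes except CKS2, which is at -0.89 with TGFB3 and 0.42 with the hairpin.

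With 1 array on each side, a high reading of the LNRII control and an effect of the ligand cannot be told apart. The LNRII control stood above shCtr for 54 of the 57 genes (47.3% of all 10847 genes measured), 5 of them by 2-fold or more (2.18% of all genes): NEK2, BUB1, KIF2C, ASPM and HMMR, at 1.38, 1.26, 1.16, 1.11 and 1.07. The second probe of HMMR stood at 0.72, short of 2-fold. In all, 26 were at least 1.5-fold higher (9.54% of all genes). BUB3, MKI67 and KIF15 were the exceptions. For BUB3 this depended on the probe, with the used probe at -0.26 and a second at 0.66, while another read 8.09 and 8.27. MKI67 was near the floor. The probe SD of this comparison was 0.27, and the difference was larger than 2 probe SDs for 28 of the 57 genes. This count too was not made over all genes. Of 26 genes with a second probe detected on both arrays, 23 had the same sign on both probes. LNRII with TGFB3 lay below shCtr for 49 of 57 and below shFOXA1 for 19 of 57, counts not made over all genes. Of 9 measured LNCaP identity genes, 8 were lower in the LNRII control than with shCtr (46.5% of all genes), 3 of them 2-fold (3.07% of all genes), and STEAP2 was at 0.18, FOXA1 at -0.01, HOXB13 at -0.03 and KRT18 at -0.16. Among the 3, KLK3, which encodes prostate-specific antigen, read 6.61, 7.44, 8.18, 8.26 and 7.94, and the luminal keratin KRT8 read 8.00, 8.55, 9.19, 9.69 and 9.44, and KLK2 stood at -1.03. KLK3 and KRT8 were lowest on the LNRII control array. Their part in the result was not tested. The lines also differ in virus, selection and labelled day.

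Other genes of mitosis, listed with earlier results of these data known, mostly differed in the same directions. With TGFB3 51 of 53 measured were lower (46% of all genes), 5 of them 2-fold (1.16%), with a median of -0.75. The exceptions were CENPN at 0.25, which also stood at -0.29 with LY2157299 against the hairpin, and DSN1 at 0.03. The largest differences were those of CEP55, which recruits the final cutting machinery (-1.24), CKAP2L, a spindle protein (-1.23), SGO1, the shugoshin that protects sister chromatid cohesion (-1.14), and ESPL1, the separase that cuts cohesin (-1.07). With the hairpin 50 of 54 were lower (52.3% of all genes), with a median of -0.41. With LY2157299 against the hairpin 50 of 54 were higher (50.7% of all genes), with a median of 0.33. HJURP, the chaperone of CENPA, was named after its values were seen. It was higher with the hairpin by 0.21 and ended 0.53 above shCtr.

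Regulators of this gene group were more mixed. Of 17 measured subunits and partners of DREAM, MuvB, E2F and NF-Y, 12 were lower with TGFB3 (46% of all genes) and 4 higher (47.7%). None differed by 2-fold, and the median was -0.29. The activator E2F2 stood at -0.86, LIN54, the subunit that binds the CHR, at -0.80, the pocket protein RBL1 at -0.74 and TFDP2, a partner of E2F, at 0.67. With the hairpin their median was -0.07 over 18 genes. Of 9 measured inhibitors of mitotic entry and the cell cycle, 8 read above 0 with TGFB3 (47.7% of all genes), of which CDKN2B alone reached 1.5-fold and GADD45A, SFN and WEE1 stood at 0.04, 0.07 and 0.08. The other was PKMYT1, which holds CDK1 inactive and is itself a late cell cycle gene (-1.07). CDKN2B, the CDK inhibitor raised by TGF-beta, read 4.72, 7.50, 5.31, 6.55 and 5.83. It was not detected in the LNRII control and stood at least 2.47 higher with TGFB3, 1.24 higher with the hairpin and -0.72 with LY2157299 against the hairpin. With the hairpin 6 of 9 read above 0 (47.3% of all genes), with CCNG2 and GADD45A, genes of growth arrest, at 0.53 and 0.53, and CDKN1B, WEE1 and PKMYT1 at -0.17, -0.11 and -0.46. With LY2157299 against the hairpin CCNG2 stood at -0.59 and GADD45A at 0.10.

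Genes of G1/S and DNA replication, the earlier wave of the cycle, differed from the mitotic genes by comparison. Their median with TGFB3 was -0.43 over 39 genes, against -0.88 for the mitotic genes, with TK1 (-1.21), CDC45 (-1.10), RRM2 (-1.04) and CDC25A (-0.89) lowest. With the hairpin both lists stood alike, at -0.42 over 40 genes and -0.41. The LNRII control lay above shCtr by a median of 0.10 for replication genes and 0.54 for mitotic genes. With hairpin and LY2157299 the replication genes stood at -0.17 against shCtr, with 32 of 40 lower (50.7% of all genes). The mitotic genes stood at 0.01. No test of these differences between lists was possible with 1 array per condition.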

How the data were processed

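Total RNA of 5 cultures was hybridised to Illumina bead arrays, 1 array per condition. The deposited scanner table holds the mean bead intensity per probe, not normalized per the file headers, and, beside it, the detection p-value that the authors deposited. Arrays were read with GenomeStudio per the submitters' processing notes, version not given. The authors' processed intensity table (column medians 4.7 for LNRII and 4.5 for LNCaP, 24.3% to 26.8% of values negative) was used as an alternative. Its scale is linear and its background method is unknown. Normalization was done with limma 3.58.1 (neqc, R 4.3.3): normexp correction with negative controls that limma infers from detection, offset 16, then quantile normalization of the 5 arrays together and log2, tested on simulated data. Tables were made with pandas 2.3.3 and numpy 2.4.6 in Python 3.11.15, and figures with matplotlib 3.10.9.

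The platform table names 1 gene for 30107 of 47306 probes, several for 8 and none for 17191. Each gene was read by its brightest probe detected (p below 0.01) on at least 1 array. Comparisons kept the genes whose probe was detected on either array. An undetected side was raised to the lowest detected value of its array, but not above the other side, where the difference is then 0. Called means at least 2-fold, or 1.5-fold where named. Genes are named by a fixed rule. In each role group these are the largest differences with TGFB3, with the hairpin and with LY2157299 against the hairpin. To them were added the smallest with TGFB3 and 14 fixed genes. From each further list up to 4 were taken, with the largest differences with TGFB3 or the hairpin. The members and lists were chosen with earlier results of these data known.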

Additional observations from a re-analysis of the deposited data

How the results depend on the processing

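All 5 medians of the mitotic genes kept their sign in the 54 runs. These were 11 alternative settings per comparison, and 10 for the LNRII control against shCtr. For hairpin with LY2157299 against shCtr the median stayed between 0.005 and 0.022. That is far below the probe SD of that comparison (0.17), so its sign says little. With TGFB3 the median ran from -0.93 (the authors' table) to -0.71 (no background correction), with the hairpin from -0.43 to -0.31, and with LY2157299 against the hairpin from 0.32 to 0.43. The count of genes 2-fold apart depended on the scale. With TGFB3 it was 16 of 57, where 124 of all 10711 genes were 2-fold lower. It was 5 without background correction (31 of all 10710 genes), 6 with an offset of 50 (53 of 10709) and 24 in the authors' table (232 of 10706). Of the 26 genes with a second detected probe, a smaller set, it was 7 (33 of 2771). For the LNRII control against shCtr it was 5 (236 of all 10847 genes were 2-fold higher), and 1 without background correction (59 of 10847). No mitotic gene was 2-fold apart in the comparisons within LNCaP under any of the 11 alternatives. A larger offset adds the same amount to both sides and so narrows every fold. Background left uncorrected is likewise added to both sides. The count for second probes covers 26 genes and not 57. Quantile normalization by line cannot be applied between the lines and was not run there. Signal over background limits MKI67, NCAPH and the dim second probes. No paired analysis was possible because each condition has 1 array.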
